A study of Mus musculus with 10 samples.

Results

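AP-1 transcription factors and their immediate early companions were followed through 10 libraries of trophoblast stem cells (TSCs) from the mouse. TSCs stand in culture for the trophectoderm, the outer layer of the blastocyst. The genes were chosen by symbol and number 10: the Jun family (Jun, Junb, Jund), the Fos family (Fos, Fosb, Fosl1, Fosl2), and Egr1, Ier2 and Zfp36. All 10 have a row in the bulk table, among 17793 genes, and in 3 of the 4 single-cell tables. The table of differentiated TSCs holds 9 of them among 18922 genes and has no row for Egr1. The single-cell tables list only genes with at least 1 count, so Egr1 was taken as 0 there.

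Libraries were made with CEL-Seq2, which counts transcript ends by molecular identifiers (UMIs). In 4 libraries, 1 per group, single cells were sorted into the 384 wells of a plate, and all of these cells carried a randomly integrated GFP cassette. TSCs of the F4 label were kept in Tx medium (called TSC below). The same label after 6 days without Fgf4, Tgfb and heparin gives the differentiated TSCs. Newly derived pTSCs were kept in LT21 medium, and blastoid pTSCs were cells of line pTS1 recovered from blastoids, which are structures assembled in culture to resemble the blastocyst. Bulk RNA made up 6 libraries, from TSCs whose Cdx2 coding sequence carries an eGFP knock-in, with 3 libraries labelled CDX2-high (37, 38 and 39) and 3 labelled CDX2-low (40, 41 and 42). Cdx2 encodes the homeobox factor that maintains TSCs. All lines were on a C57BL/6J background. With 1 library per single-cell group, culture medium, cell line and plate cannot be told apart there. Nothing in the labels says that the bulk libraries came from separate cultures, and each p-value covers no more than the spread among these libraries, which may be technical.

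AP-1 is a dimer. Jun proteins pair with one another or with Fos proteins through a leucine zipper, whereas Fos proteins need a Jun partner, and the dimer binds a short palindrome in promoters and enhancers. Fos, Fosb, Egr1, Ier2, Junb and Zfp36 are textbook immediate early genes, transcribed within minutes of a growth factor or stress signal, without new protein synthesis, through ERK, SRF and its ternary complex partners. TSCs are held in the stem state by Fgf4, which signals through ERK, and Fosl1 and Junb are known for roles in placental development.

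Promoters of 7 of the 10 members were matched in RefSeq (GRCm38.p6); Fosl1, Egr1 and Ier2 were not. The 250 bases upstream of the start are printed, 5′ to 3′ on the strand of the gene, for 4 members. Jun and Fos passed the bulk test, and Fosb had the highest correlation with Fos across the cells of the TSC library. Zfp36 holds the one match of the 7, within these 250 bases, to the CArG box bound by SRF. Capitals mark the motif matches named after the sequences.
Jun: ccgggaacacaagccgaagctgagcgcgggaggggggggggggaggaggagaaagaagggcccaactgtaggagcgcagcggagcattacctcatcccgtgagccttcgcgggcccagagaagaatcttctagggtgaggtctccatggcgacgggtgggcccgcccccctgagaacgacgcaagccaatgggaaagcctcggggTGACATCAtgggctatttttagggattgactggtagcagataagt
Fos: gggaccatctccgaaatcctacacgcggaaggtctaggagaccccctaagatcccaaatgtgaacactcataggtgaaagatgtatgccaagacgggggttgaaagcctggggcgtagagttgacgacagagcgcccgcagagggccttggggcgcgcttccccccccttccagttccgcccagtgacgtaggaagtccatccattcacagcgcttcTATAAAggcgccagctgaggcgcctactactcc
Fosb: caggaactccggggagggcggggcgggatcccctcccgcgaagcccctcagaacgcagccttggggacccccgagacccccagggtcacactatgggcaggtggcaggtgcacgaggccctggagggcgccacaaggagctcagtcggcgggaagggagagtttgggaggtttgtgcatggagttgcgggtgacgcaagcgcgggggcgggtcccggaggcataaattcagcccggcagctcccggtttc
Zfp36: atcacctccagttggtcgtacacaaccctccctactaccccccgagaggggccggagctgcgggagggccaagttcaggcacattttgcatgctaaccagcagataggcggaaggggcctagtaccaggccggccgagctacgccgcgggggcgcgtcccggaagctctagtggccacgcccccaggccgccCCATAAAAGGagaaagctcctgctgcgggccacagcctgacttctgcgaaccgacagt
These lie at chr4:95052223-95052472 (minus strand) for Jun, chr12:85473640-85473889 (plus strand) for Fos, chr7:19310046-19310295 (minus strand) for Fosb and chr7:28379229-28379478 (minus strand) for Zfp36. Motifs were searched on both strands: TGANTCA (the AP-1 site), TGACNTCA (its CRE-like variant), the CArG box bound by SRF, and TATAAA. Jun held TGACATCA beginning 45 bases before the start, Fos held TATAAA 33 bases before it, and Zfp36 held a CArG box, CCATAAAAGG, 58 bases before it. Junb, Jund, Fosb and Fosl2 held none of them in this window. Among 32851 promoters of the same length, 6.75% held TGANTCA, 7.49% TGACNTCA, 1.47% a CArG box and 12.4% TATAAA. Bases further upstream were not searched, so a motif missing here may lie outside the window. A match is a description of letters, not a measured site.

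Bulk totals ran from 157588 to 272030 counts in CDX2-high and from 116659 to 138966 in CDX2-low. In the single-cell libraries 1192 wells with 2000 or more UMIs outside mitochondrial genes were kept, and the median depth ran from 6844 UMIs (pTSC) to 15091 (TSC). Median mitochondrial shares were 22.4% in differentiated TSCs, 13.1% in TSCs, 14.7% in pTSCs and 19.1% in blastoid pTSCs. The label check came out as named in bulk: Cdx2-eGFP reached 786 ± 51.3 CPM (counts per 1000000 counts of the library; SD, n = 3) in CDX2-high and 65.7 ± 33.2 (SD, n = 3) in CDX2-low. The TSC markers Eomes, Sox2 and Gata3 were present in every library. Differentiated TSCs held 8 UMIs of Cdx2 and 2 of Elf5, against 269 and 204 in TSCs. The differentiated library also held 226 UMIs of 5 Y-linked genes and 14 of Xist, where TSCs held 0 and 1515, so these libraries differ in sex-linked RNA although both are labelled F4. What this difference adds to the comparisons was not tested. Fibroblast markers stayed low in the single-cell libraries, with 33 to 100 UMIs per library summed over 7 genes and Dcn at 0 in each. Identical columns of values were found in 0 pairs of wells, although 208 to 270 well numbers were shared between any pair of libraries.

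In sorted bulk TSCs, Jun was several-fold lower in CDX2-high than in CDX2-low, Fos was lower by a smaller factor, and no member passed the test as higher. Of the 10 members, 6 passed the filter on low counts and were tested with edgeR, and 3 of these (Jun, Fos and Fosl2) were lower at an adjusted p under 0.05. Fosl2 passed the filter through CDX2-low, the group in which it was higher. Its p-value and its place in the count of 3 are therefore descriptions only. The count of 3 fell to 1, Jun, with DESeq2 and with counts thinned to the smallest library. Over all 3006 genes tested, 2.79% were lower in CDX2-high and 5.89% passed in either direction. Bulk RNA cannot tell fewer cells with a transcript from less transcript per cell.

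Jun, of the family that supplies a partner to Fos proteins, had 10, 23 and 22 counts in CDX2-high libraries 37 to 39. It had 60, 47 and 62 in CDX2-low libraries 40 to 42. In CPM these were 63.5, 89.4 and 80.9 against 514, 338 and 459. Every CDX2-low library lay above every CDX2-high library, although the CDX2-low libraries were the shallower ones. The means were 77.9 ± 13.2 and 437 ± 90.1 CPM (SD, n = 3 each), a log2 fold change of -2.45 (SE 0.26, edgeR adjusted p = 1.35e-06). By p-value Jun ranked 3 among the genes tested. Library 37 lay under the cutoff of the count filter, so CDX2-high alone would not have kept Jun. With a filter of 10 counts in 3 libraries, which each group met alone, the edgeR adjusted p was 2.51e-07.

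Junb, a Jun protein whose dimers can oppose those of Jun, had 88.8, 97.2 and 58.8 CPM in CDX2-high and 77.1, 43.2 and 37.04 in CDX2-low. The groups overlapped, and the log2 fold change of 0.63 (SE 0.42) did not pass (edgeR adjusted p = 0.445, 95% interval -0.18 to 1.44). Jund, the family member usually present without stimulation, had 2, 3 and 13 counts in CDX2-high and 12, 11 and 5 in CDX2-low, too few to pass the filter. Jund libraries overlapped between the groups because of 1 library on each side, 39 and 42.

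Fosl2, a Fos family member that lacks a strong activation domain, had 1, 6 and 5 counts in CDX2-high and 10, 13 and 15 in CDX2-low. These correspond to 6.35, 23.3 and 18.4 CPM against 85.7, 93.5 and 111. The groups did not overlap, and the log2 fold change was -2.45 (SE 0.48, edgeR adjusted p = 0.00179). Fosl2 reached 10 counts in CDX2-low libraries alone, so the filter kept it through that group and the p-value is a description only. With DESeq2 without independent filtering the call was lost (adjusted p = 0.0739), and after thinning to the smallest library Fosl2 did not pass the filter.

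Fos, the prototype immediate early gene, had 324, 296 and 316 CPM in CDX2-high and 394, 828 and 474 in CDX2-low. The groups did not overlap, and the spread lay almost wholly in CDX2-low, with means of 312 ± 14.5 and 565 ± 231 CPM (SD, n = 3 each). The log2 fold change was -0.88 (SE 0.24, edgeR adjusted p = 0.0284). Library 41 held the highest value, and without it the fold change was -0.49 and did not pass (edgeR adjusted p = 0.234). The call was also lost with DESeq2 (adjusted p = 0.0818), with counts thinned to the smallest library (0.0738) and without library 37, 38 or 39 (0.103 to 0.119).

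Fosb, the close relative of Fos, had 10, 4 and 4 counts in CDX2-high and 19, 11 and 7 in CDX2-low. It did not pass the filter, and library 37 of CDX2-high overlapped with CDX2-low. With no filter its log2 fold change was -1.72 (edgeR adjusted p = 0.0172), and with a filter of 10 counts in 3 libraries it was -1.83 (adjusted p = 0.0339). Fosl1 had 0 counts in all 6 bulk libraries, while every single-cell library held it.

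Ier2, an immediate early gene of uncertain molecular role, had 159, 85.6 and 58.8 CPM in CDX2-high and 137, 158 and 170 in CDX2-low. Egr1, a zinc finger factor induced through SRF, had 57.1, 73.9 and 95.6 CPM against 60.0, 79.2 and 44.5. Both overlapped between the groups and neither passed (edgeR adjusted p = 0.235 for Ier2 at a log2 fold change of -0.73, and 0.737 for Egr1 at 0.32). Zfp36, which binds AU-rich elements and destabilises transcripts such as those of Fos, had 10, 12 and 10 counts against 2, 6 and 6 and was not tested. Among the tested genes, 11.0% had every CDX2-high library below every CDX2-low library, as Jun, Fos and Fosl2 did.

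**Figure D1:**
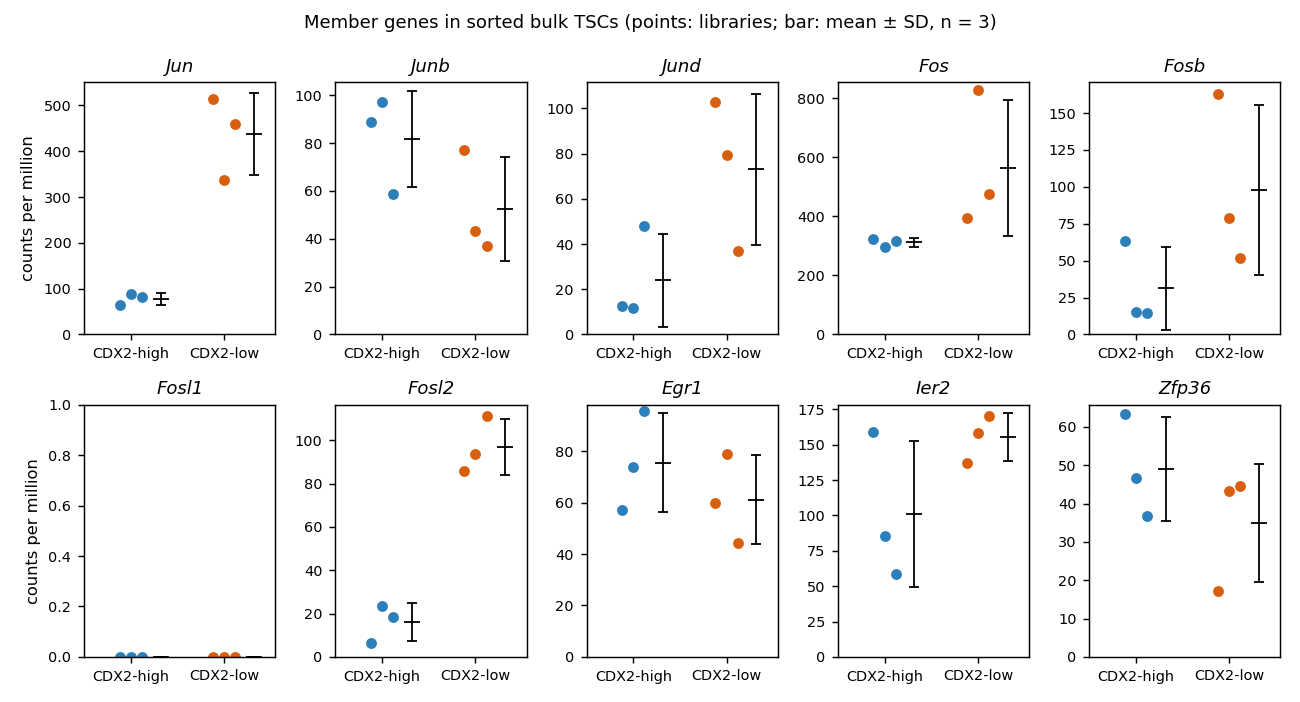
CPM (linear axes, each starting at 0) of the 10 members in the 6 sorted bulk libraries. Points are libraries, and bars give the mean and SD (n = 3). Jun, Fos and Fosl2 do not overlap between CDX2-high and CDX2-low, the Fos values of CDX2-low spread from 394 to 828, and Fosl1 is at 0 throughout.

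Among 30 other immediate early genes, 12 were tested, of which 1 was higher and 3 were lower in CDX2-high. Nfkbia, the inhibitor of NF-kappaB, fell from 168 ± 32.4 to 59.0 ± 17.3 CPM (SD, n = 3 each; log2 fold change -1.49, edgeR adjusted p = 0.00721). Socs3, a feedback inhibitor of cytokine signalling, fell from 98.7 ± 27.6 to 25.01 ± 13.5 CPM (log2 fold change -1.89, adjusted p = 0.0119). Cyr61, a matricellular protein, was also lower (log2 fold change -1.10, adjusted p = 0.0330), but its groups overlapped. Myc went the other way, at 82.6 ± 8.06 CPM in CDX2-high and 25.3 ± 16.6 in CDX2-low (log2 fold change 1.64, adjusted p = 0.0427). Socs3 and Myc passed the filter on low counts through the group in which each was higher, and Nfkbia mainly so. Their p-values and places in these counts are descriptions only.

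Of 7 tested bZIP partners and relatives, Cebpb alone passed, lower in CDX2-high (log2 fold change -1.51, edgeR adjusted p = 0.0199). None of 8 tested upstream kinases and SRF partners passed, and none of 8 tested heat shock and dissociation genes. Zfp36l1, a relative of Zfp36, was lower (log2 fold change -1.08, adjusted p = 0.0425). Genes known as AP-1 targets did not follow Jun: of 7 tested, 3 were higher in CDX2-high and none was lower. Mmp9, a secreted protease, stood at 1305 ± 77.0 CPM in CDX2-high and 325 ± 63.4 in CDX2-low. Ccnd1, the D-type cyclin downstream of growth factors, stood at 137 ± 28.2 and 22.4 ± 14.3 CPM, and Vim, an intermediate filament gene, at 273 ± 11.7 and 142 ± 29.6 CPM. Ccnd1 passed the filter on low counts through CDX2-high and Cebpb mainly through CDX2-low, so both calls are descriptions only.

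Keratins moved the same way as Jun and Fosl2 in these libraries. Krt8 stood at 212 ± 30.3 CPM in CDX2-high and 758 ± 101 in CDX2-low (log2 fold change -1.83), and Lgals3 and Krt19 at -2.31 and -1.67 on the same scale. Lgals3 and Krt19 passed the filter on low counts through CDX2-low and are given as descriptions. The TSC markers Eomes, Elf5 and Esrrb were higher in every CDX2-high library without passing the test (edgeR adjusted p = 0.147, 0.0898 and 0.0653). The other TSC markers did not separate the groups. Sox2, Tfap2c and Gata3 overlapped, at log2 fold changes of 0.49, 0.34 and -0.12, and Cdx2 had too few counts to be tested. Pdgfrb, which also marks fibroblasts, was at 4.57 ± 3.99 against 33.4 ± 11.5 CPM, whereas Col3a1 was at 0 counts in all 6 libraries. The part of differentiating cells in the Jun and Fosl2 values was not tested.

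Across the single-cell libraries, with counts summed over cells, the members fell into different orders. Ratios between libraries carry a 95% interval that covers counting error only, and with 1 library per group no test was possible. The members summed to 3188 CPM in differentiated TSCs, 1679 in TSCs, 1769 in pTSCs and 1480 in blastoid pTSCs.

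Jun was highest in differentiated TSCs (765 CPM), followed by blastoid pTSCs (249), TSCs (215) and pTSCs (136), a range of 5.64-fold (5.02 to 6.34). Junb ran differently, highest in pTSCs (462), then differentiated TSCs (330), blastoid pTSCs (210) and TSCs (188). The last pair was within counting error. Jund was highest in blastoid pTSCs (690), ahead of differentiated TSCs (480), pTSCs (323) and TSCs (282). So each Jun gene had its maximum in a different library.

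Fos and Fosb shared one order: differentiated TSCs, TSCs, pTSCs, blastoid pTSCs. Fos fell along it from 643 to 432, 225 and 58.7 CPM, an overall range of 10.9-fold (9.20 to 13.1). Fosb fell from 263 to 108, 41.4 and 12.95 CPM, a range of 20.3-fold (14.1 to 30.3), and each step of both genes lay outside counting error. Fosl1, which has its own place in placental development, stood at 106 CPM in pTSCs, 93.4 in differentiated TSCs, 63.8 in TSCs and 17.3 in blastoid pTSCs, and the first pair lay within counting error. Fosl2 varied least of the Fos family, from 126 CPM in differentiated TSCs to 83.3 in blastoid pTSCs, 78.1 in TSCs and 52.5 in pTSCs. The middle pair of Fosl2 was within counting error.

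Zfp36 stood at 434 CPM in differentiated TSCs, 266 in pTSCs, 208 in TSCs and 91.5 in blastoid pTSCs. Ier2 differed in the place of differentiated TSCs, which were lowest and not highest. It had 147 CPM in pTSCs, 100.02 in TSCs, 66.5 in blastoid pTSCs and 54.1 in differentiated TSCs, the last pair within counting error. Egr1 was near the detection limit everywhere: 26 UMIs in pTSCs (10.7 CPM), 16 in TSCs (2.97), 1 in blastoid pTSCs (0.432) and none in differentiated TSCs. In bulk TSCs its level was between 44.5 and 95.6 CPM, but bulk and single-cell tables were made separately and no fold is given between them.

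**Figure D2:**
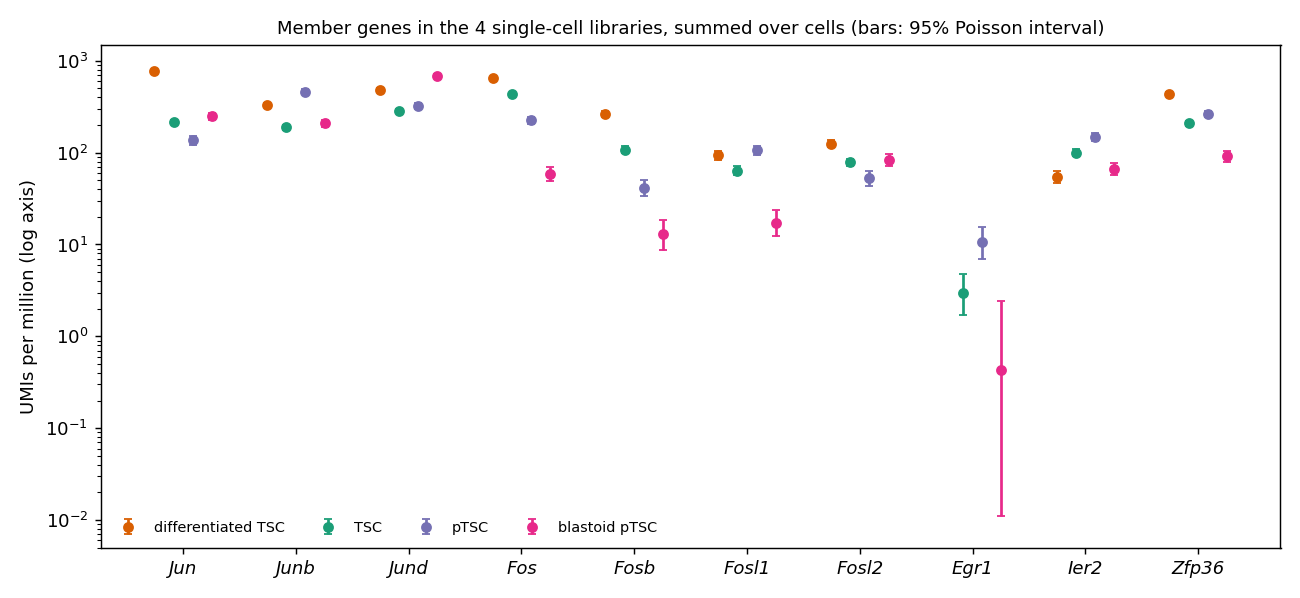
CPM (log axis) of each member in the 4 single-cell libraries, summed over cells, with 95% Poisson intervals that cover counting error. Fos and Fosb step down from differentiated TSCs to blastoid pTSCs, Jund is highest in blastoid pTSCs (690), and Egr1 has no point in differentiated TSCs, where it is not listed.

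Differentiated TSCs, kept without growth factors, were then set against TSCs. These libraries also differ in sex-linked RNA, so growth factor loss cannot be told apart from cell line and plate here. Members at least 2-fold higher were Jun (3.55-fold, 3.31 to 3.81), Fosb (2.43-fold, 2.19 to 2.71) and Zfp36 (2.09-fold, 1.93 to 2.26). Egr1 was 3.22-fold lower when its count of 0 in differentiated TSCs was set to a floor of 3 counts over the library. That value leaves out counting error in the 16 UMIs of TSCs and is not a bound. The other 6 members were within 2-fold, among them Junb (log2 ratio 0.81), Jund (0.77) and Fos (0.57), and Ier2 was the one of these that was lower (-0.89). Counting all 10, the median log2 ratio was 0.73, where it was 0.05 over 12158 genes measured. Of these genes 17.5% were at least 2-fold higher and 18.0% at least 2-fold lower. Scaling by TMM lowered every log2 ratio of this comparison by 0.17, which left Zfp36 at 0.89 and took Ier2 to -1.06.

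Other immediate early genes in this comparison were mostly higher too: 11 of 20 measured were at least 2-fold higher and 2 at least 2-fold lower. Btg2, an antiproliferative gene, stood at 1496 against 334 CPM, Klf2 at 186 against 45.5 and Csrnp1 at 493 against 140. Among bZIP relatives 4 of 15 were higher and 1 lower, led by Mafk (37.8 against 8.17 CPM), Nfe2l2 (697 against 320) and Atf2. Elk3 and Elk4 were among the 4 of 17 kinase and SRF pathway genes that were higher, with Elk4 at 89.1 against 26.7 CPM. Of 10 measured AP-1 targets, 3 were higher and 1 lower. Vim stood at 70 UMIs against 0, and Mmp9 at 2 UMIs against 55. Zfp36l3, a placental relative of Zfp36, was 9.02-fold higher (7.46 to 11.0), and Ier5l was 3.18-fold higher.

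Some heat shock and dissociation genes were also higher in the same library. Of 11 measured, 5 were at least 2-fold higher and 1 lower, with Cryab at 504 against 47.7 CPM, Hspa1b at 194 against 50.7 and Hspb1 at 161 against 59.6, while the list summed to 2703 against 2097 CPM. Krt8 stood at 2224 against 350 CPM, and the median mitochondrial share at 22.4% against 13.1%. Their part in the Jun, Fosb and Zfp36 ratios was not tested.

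Comparing pTSCs in LT21 with TSCs in Tx, Junb was 2.45-fold higher (2.25 to 2.67) and Egr1 3.59-fold higher (1.86 to 7.17, from 26 and 16 UMIs). Fosb was 2.61-fold lower (2.11 to 3.26) and Fos 1.92-fold lower (1.75 to 2.11), just inside the 2-fold line. The other 6 lay within 2-fold, with Jun at -0.67, Fosl2 at -0.57, Jund at 0.20, Zfp36 at 0.35, Ier2 at 0.56 and Fosl1 at 0.73 on the log2 scale. The members' median log2 ratio was 0.27, against -0.04 over 12070 genes, of which 17.6% were at least 2-fold higher and 13.9% lower. TMM scaling moved these ratios by 0.09 and took Fos to -1.03, past the line.

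Of 20 other immediate early genes, 1 was higher (Dusp2, 18.9 against 8.54 CPM) and 1 lower (Nfkbia, 67.3 against 143). Sgk1 followed at 4.92 against 9.65 CPM. Of 11 AP-1 targets, 5 were at least 2-fold higher and none was lower, where 17.6% of 12070 genes were higher and 13.9% lower. Ccnd1 was at 48.0 against 9.84 CPM and Hbegf, an EGF receptor ligand, at 82.1 against 46.0. Cebpb (163 against 373 CPM) and Nfe2l2 (160 against 320) were lower and Mafk higher (27.1 against 8.17). In the kinase and SRF list 2 were higher and 4 lower of 17, with Elk3 at 30.8 against 6.87, Mkl2 at 20.1 against 67.0 and Map3k1 at 39.8 against 111 CPM. Zfp36l3 had 0 UMIs in pTSCs and 127 in TSCs, Zfp36l1 was 2.25-fold lower, and Ier5l was within 2-fold. Of 11 heat shock and dissociation genes only Cryab passed 2-fold (11.5 against 47.7 CPM, lower), and Hspa1b and Dnaja1 were 1.76-fold and 1.69-fold lower. Markers of differentiating trophoblast differed between these libraries: Krt8 stood at 882 CPM in pTSCs and 350 in TSCs, Flt1 at 397 and 103, Phlda2 at 55.0 and 755, and Nrk at 45.5 and 200.2. The 6 trophectoderm markers summed to 3825 against 1840 CPM and the 6 of spongiotrophoblast and ectoplacental cone to 873 against 1906. Their part in the Junb, Egr1 and Fosb ratios was not tested.

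Blastoid pTSCs against cultured pTSCs gave the clearest split within the family. Members at least 2-fold lower numbered 7 of 10, where 9.42% of 11343 genes were at least 2-fold lower and 13.4% higher. Fosl1 was 6.13-fold lower (4.38 to 8.78), Fos 3.83-fold (3.17 to 4.65), Fosb 3.20-fold (2.11 to 4.98), Zfp36 2.90-fold (2.48 to 3.41), Ier2 2.21-fold (1.83 to 2.69) and Junb 2.20-fold (1.98 to 2.45). Egr1 had 1 UMI against 26, a ratio of 24.7 whose interval runs from 4.06 to 1013. Jund was 2.14-fold higher (1.96 to 2.33), and Jun (1.83-fold, 1.60 to 2.11) and Fosl2 (1.59-fold) were higher within the 2-fold line. TMM scaling lowered each log2 ratio by 0.10 and left Jund at 0.995, just under 1. The median log2 ratio of the members was -1.34, against 0.07 over all genes measured.

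Other immediate early genes did not share that fall: 4 of 20 were higher and 3 lower, with a median log2 ratio of -0.09. Cyr61 was at 69.1 against 604 CPM, Ier3 at 36.7 against 176 and Klf4, in the other direction, at 82.9 against 16.8. AP-1 targets were lower in 6 of 11 and higher in 1. Hbegf stood at 25.04 against 82.1 CPM, Plaur, the urokinase receptor, at 67.8 against 217 and Ccnd1 at 17.3 against 48.0. In the kinase and SRF list, Elk3 was lower (6.91 against 30.8 CPM), and Map3k1 (96.7 against 39.8) and Rps6ka1 (14.2 against 6.97) were among the 3 of 16 that were higher. Maf was higher (22.5 against 8.21 CPM), Mafk lower (11.7 against 27.1) and Cebpb 1.95-fold higher. All 4 Zfp36 and Ier relatives had a log2 ratio above 0, and 3 of them were at least 2-fold higher: Zfp36l3 with 60 UMIs against 0, Ier5l 3.65-fold and Zfp36l1 2.62-fold. Hspa1b was 2.38-fold higher, while Cryab and Hspa1a were within 2-fold, and 1 of 11 heat shock and dissociation genes was lower.

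Beside these ratios, Krt8 stood at 1695 CPM in blastoid pTSCs and 882 in pTSCs, Eomes at 300.1 and 581, and the median mitochondrial share at 19.1% and 14.7%. Markers of spongiotrophoblast and ectoplacental cone differed more, with Phlda2 at 812 against 55.0 CPM, Nrk at 313 against 45.5, Rhox6 at 1613 against 433, and all 6 summing to 3637 against 873. Their part in the member ratios was not tested. TSCs entered both of the first comparisons and pTSCs both of the last, so the comparisons are not independent of each other.

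**Figure D3:**
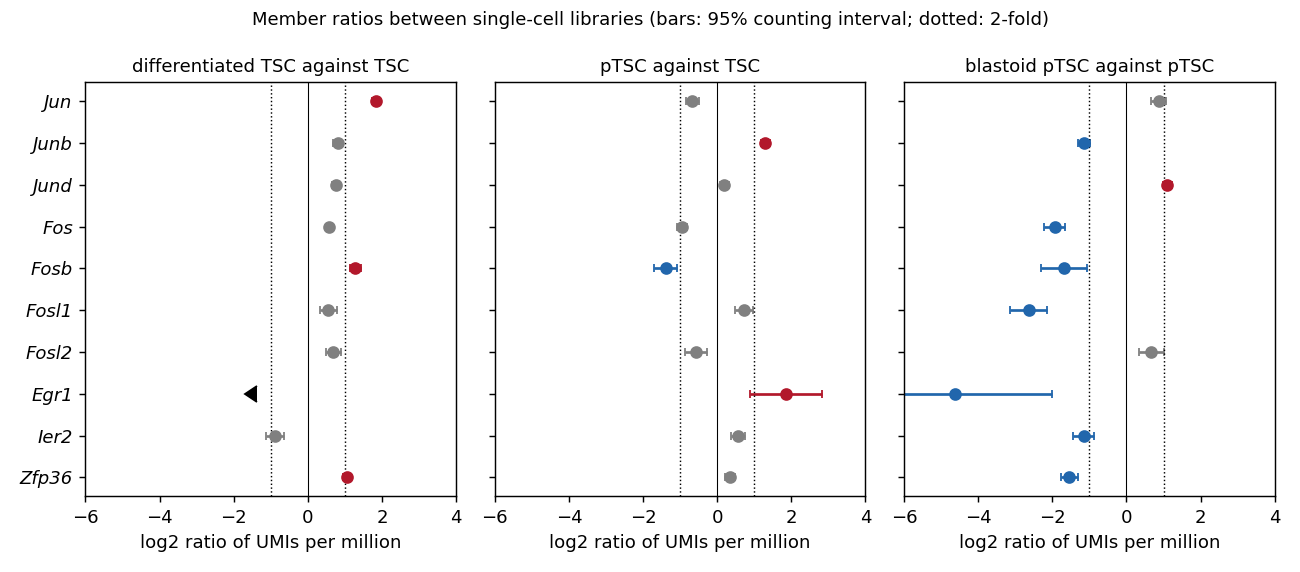
Log2 ratios of CPM for the 10 members in 3 comparisons of single-cell libraries, with 95% counting intervals. Dotted lines mark 2-fold, red and blue points lie past it, and the triangle for Egr1 marks a ratio computed with the floor count. The interval of Egr1 in the third panel runs off the axis. Blastoid pTSCs show 7 members lower by 2-fold or more and Jund higher.

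Depth was then made equal by drawing 2000 UMIs from each cell. Jun was seen in 70.8% of differentiated cells, 25.8% of TSCs, 24.4% of pTSCs and 33.1% of blastoid cells (without thinning 93.1%, 76.1%, 51.5% and 64.6%). Fos was seen in 55.3%, 40.6%, 31.1% and 9.34% in the same order (without thinning 82.1%, 78.3%, 54.5% and 30.7%). Jund reached 68.9% of blastoid cells, against 42.1% of pTSCs and 38.4% of TSCs (without thinning 93.8%, 76.3% and 87.7%). Junb was seen in 54.2% of pTSCs and 29.6% of TSCs (without thinning 82.3% and 76.7%). Fosb was seen in 32.4% of differentiated cells, 13.2% of TSCs and 2.72% of blastoid cells (without thinning 61.0%, 43.1% and 6.23%). These shares rest on 1 random draw. Repeating it 20 times, an alternative chosen after seeing the data, gave 39.6% to 50% for Fos and 12.3% to 17.9% for Fosb in TSCs, and 61.1% to 72.8% for Jund in blastoid cells. After thinning Egr1 was left in 8 pTSCs, 3 TSCs and 0 of 257 blastoid cells, which allows a share of up to 1.17% with a UMI.

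Within TSCs, Fos, Jun and Fosb were spread unevenly over cells. At 2000 UMIs per cell the variance of Fos was 2.42 times its mean (the median of 20 draws, which ran from 2.13 to 3.28). The same measure was 2.06 for Jun (1.48 to 2.64) and 1.69 for Fosb (1.22 to 2.10). In a single draw the value of Fos was 2.76, and 99.2% of 497 genes of like mean, whose median was 1.12, lay below it. The tenth of TSCs with the most Fos UMIs, 32 of 318 cells, held 49.3% of them, and for Fosb the share was 65.9%. The median TSC had 247 CPM of Fos, the cell at the 90th percentile 1228 and the highest cell 5145. Ier2 in pTSCs, at 1.05 (0.959 to 1.25), was close to 1, the value of counting noise alone.

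Uneven members rose in the same TSCs. Across 318 TSCs, on the scale of log2(counts per 10000 + 1), the Pearson correlation of Fos with Fosb was 0.60 (on thinned counts a median of 0.39 over the draws, 0.28 to 0.52). Jun correlated at 0.41 with Fos, 0.40 with Jund and 0.37 with Fosb, and Jund at 0.36 with Fos and 0.37 with Fosb. On thinned counts the medians were 0.33 for Jun with Fos and 0.25 for Jun with Fosb, and the Jund pairs dropped further, to 0.22 with Jun, 0.20 with Fos and 0.17 with Fosb. Among all pairs of 4536 genes with at least 0.5 UMIs per cell, the 99th percentile was 0.20. The 3 genes most like Fos in TSCs were Fosb, Jun and Jund, and each of these 4 genes had the other three as its nearest neighbours. These cells share 1 library and are not replicates, so the values describe it and carry no test. Fosl2 stayed outside the group, with Eif4a2 (0.25) as its nearest gene.

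**Figure D4:**
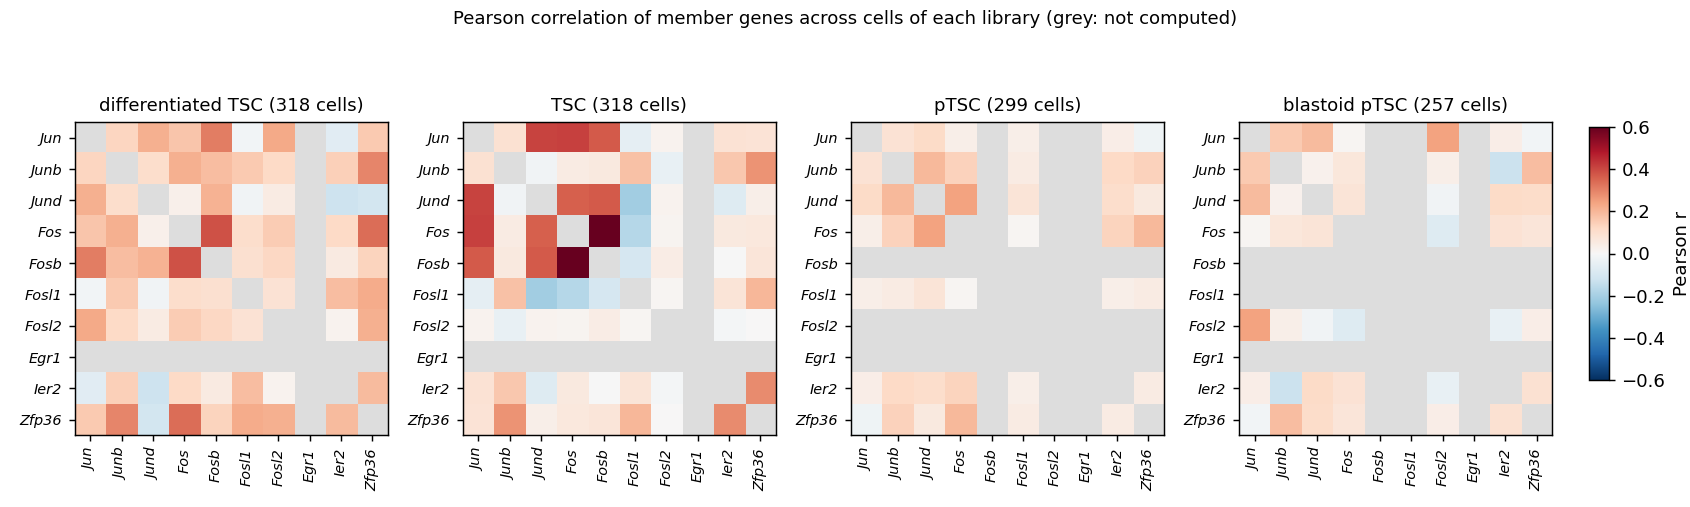
Pearson correlations between members across the cells of each single-cell library, on log2(counts per 10000 + 1). Grey squares were not computed (under 0.5 UMIs per cell, or the diagonal). Jun, Jund, Fos and Fosb form a block in TSCs with values from 0.36 to 0.60, and the blocks in pTSCs and blastoid pTSCs are paler.

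To show what such cells hold, the 32 TSCs with the highest Fos CPM were set beside the other 286. Fosb stood at 512 against 62.9 CPM, Jun at 708 against 160, Jund at 621 against 244 and Ier2 at 140 against 95.5. Egr1 had 7 of its 16 UMIs in these 32 cells. Junb (168 against 191 CPM) was close to level, and Fosl1 (24.0 against 68.3) was lower. Dusp6 and Spry4, feedback inhibitors induced by ERK signalling, were lower as well, at 33.2 against 142 CPM and 14.7 against 51.8. Eomes stood at 249 against 391 CPM, Krt8 at 347 against 350.2 and Hspa1b at 36.9 against 52.2. The 32 cells were shallower, with a median of 11087 UMIs against 15320, and the cut is a rank and not a cell type.

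In other libraries the block was looser. Differentiated TSCs had Fos with Fosb (0.38), Jun with Fosb (0.31), Fos with Zfp36 (0.34) and Junb with Zfp36 (0.29). The 99th percentile over all gene pairs was 0.23. On thinned counts the medians of these pairs over 20 draws were 0.17, 0.18, 0.23 and 0.22 in that order. Without thinning, 10 of 36 member pairs of differentiated TSCs exceeded 0.2, where TSCs had 9 of 36 above it. In pTSCs 1 of 21 pairs did (Jund with Fos, 0.24), and in blastoid pTSCs 1 of 21 (Jun with Fosl2, 0.24). Fosb was too rare to be paired in either. The top Fos cells of blastoid pTSCs, 26 of 257, held 18 of the 30 Fosb UMIs of that library. The median depth was 15091 UMIs in TSCs, 8473 in differentiated TSCs, 6844 in pTSCs and 8242 in blastoid pTSCs. At 2000 UMIs per cell the median correlation of Jun with Fos over 20 draws was 0.33 in TSCs (0.20 to 0.43), 0.13 in differentiated TSCs (-0.01 to 0.23), 0.03 in pTSCs (-0.05 to 0.13) and 0.02 in blastoid pTSCs (-0.13 to 0.12).

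Jund tracked the keratin genes in each library. Its correlation with Krt8, a keratin of trophectoderm epithelium, was 0.38 in differentiated TSCs, 0.32 in TSCs, 0.23 in pTSCs and 0.27 in blastoid pTSCs. With Eomes, a T-box factor of the stem state, it was -0.36, -0.29, -0.21 and -0.38 in the same order. On thinned counts the medians over 20 draws for Krt8 were 0.29, 0.19, 0.25 and 0.13 in that order, and each draw was above 0 (the lowest was 0.05, in TSCs). For Eomes the thinned medians were weaker, at -0.15, -0.12, -0.07 and -0.20. Each draw was below 0, and the nearest to it was -0.02, in pTSCs. The 32 TSCs highest in Jund held Krt8 at 1149 CPM against 264 in the rest, Eomes at 109 against 405 and Sox2 at 261 against 813. The heat shock gene Hspa1b was higher in these cells too, at 159 against 39.03 CPM (4.08-fold, 3.11 to 5.31), and it was 1.56-fold higher in the top Jund cells of differentiated TSCs, 2.16-fold in those of pTSCs and 3.73-fold in those of blastoid pTSCs. Its part in the Jund values was not tested. Klf6, another immediate early gene, was among the 3 genes most like Jund in pTSCs (0.27) and blastoid pTSCs (0.35), and among those most like Jun in differentiated TSCs (0.37) and pTSCs (0.23).

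Fosl1 and Junb kept other company in TSCs. Fosl1 was most like Pou3f1 (0.40), Phlda1 (0.37) and Spry4 (0.36), and its correlation with Eomes was 0.31. The 32 TSCs with the most Fosl1 held Spry4 at 163 CPM against 34.1 and Eomes at 729 against 334. On thinned counts both fell to a median of 0.08 over 20 draws, from -0.03 to 0.25 with Eomes and from -0.03 to 0.35 with Spry4. In differentiated TSCs Phlda1 was again the gene most like Fosl1 (0.45), where that with Eomes was 0.27. Spry4 was the gene most like Junb in TSCs (0.35, and 0.13 as the median on thinned counts, 0.05 to 0.22) and the second for Zfp36 (0.30). Zfp36 correlated at 0.28 with Ier2 and 0.27 with Junb there (on thinned counts, medians of 0.15 and 0.13). Fos and Jund went the other way with Sox2 in TSCs, at -0.26 and -0.31 (on thinned counts, medians of -0.12 and -0.14).

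**Figure D5:**
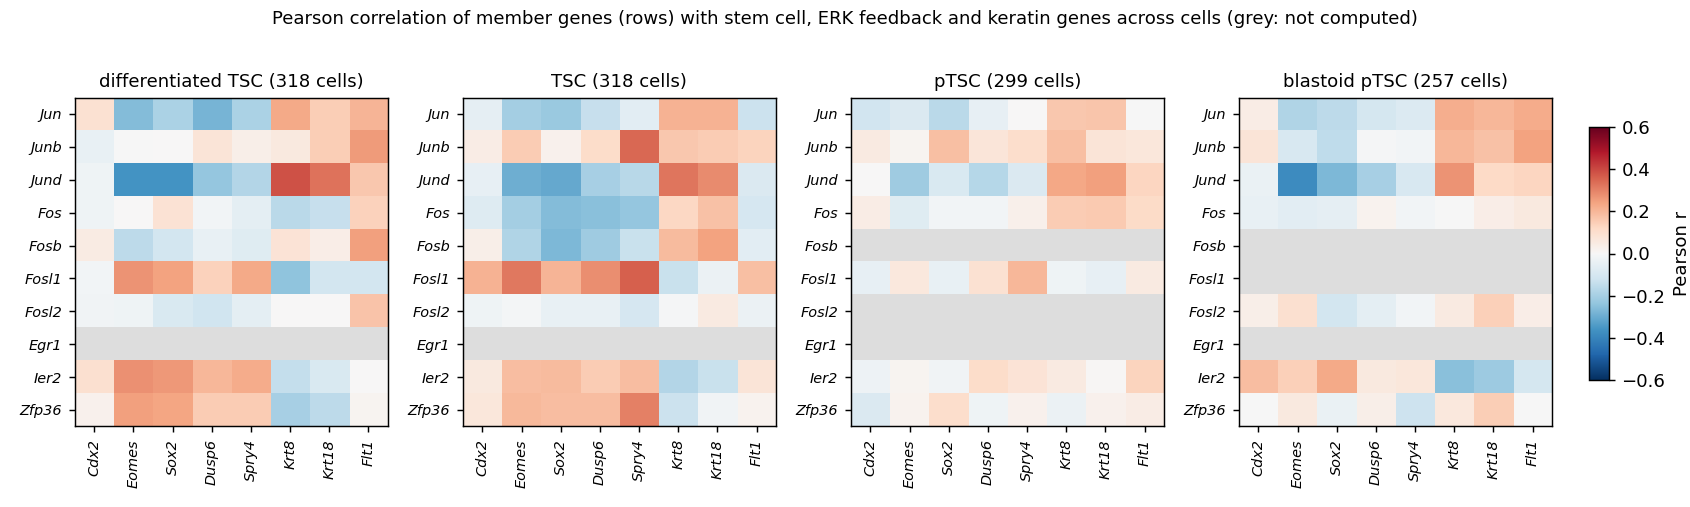
Pearson correlations of members (rows) with stem cell genes (Cdx2, Eomes, Sox2), ERK feedback genes (Dusp6, Spry4) and differentiation genes (Krt8, Krt18, Flt1) across cells of each library. Jund is positive with Krt8 (0.23 to 0.38) and negative with Eomes (-0.21 to -0.38) in the 4 libraries, and Fosl1 in TSCs is positive with Eomes and Spry4. All values are without thinning.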

How the data were processed

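RNA was measured by CEL-Seq2 in 6 bulk and 4 single-cell libraries. In bulk, the authors deposited raw counts per gene and library. In single cells, the authors deposited transcript counts per gene and well, taken here as estimated counts; all are whole numbers and needed no rounding. Per the submitters' processing notes, STAR 2.5.3a was among the tools. Build, annotation and counting program: not given in the sources used here, so the RefSeq promoters carry the only coordinates printed. A list of well barcodes was not used.

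The bulk test was the quasi-likelihood test of edgeR 4.0.16 (R 4.3.3) after filterByExpr and TMM, without covariates. The threshold was 0.05 on p-values adjusted by Benjamini and Hochberg over all genes tested. The SE was the log2 fold change divided by the root of F. In single cells, wells with 2000 UMIs or more outside mitochondrial genes were kept. CPM of a library are its summed counts over its non-mitochondrial total, and genes with 10 counts over both libraries were measured. A size rule of 2-fold replaced a test, with exact conditional binomial intervals at 95%. No doublet caller was run on the sorted wells. Shares of cells used counts thinned to 2000 UMIs in 1 random draw, and variances and thinned correlations used 20 draws. Python 3.11.15 with numpy 2.4.6, pandas 2.3.3 and scipy 1.17.1 was used, and DESeq2 1.42.0 for an alternative. Other genes were named where they passed the bulk test, or had at least 50 UMIs and one of the 3 largest folds of their list. Some genes that this rule names are not reported here. Members and lists were chosen with earlier results of these data known. Counts of replicates in a bulk group differed beyond sampling noise (chi-square over degrees of freedom 1.44 to 2.30).

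On simulated counts for the bulk comparison (2983 genes tested), 60 of 92 genes changed 2-fold and 100 of 101 changed 4-fold were recovered, and 2 of 162 calls were false. On simulated counts for differentiated TSCs against TSCs (11875 genes), 96.6% of intervals held the true ratio. Intervals and floors cover counting error only.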

Additional observations from a re-analysis of the deposited data

Results flagged for a closer look

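Wells under 2000 UMIs entered no comparison, yet they held member UMIs above the limit that a count of 0 allows in each of the 4 single-cell libraries. The members summed to 3229 CPM in 66 such wells of differentiated TSCs (122 UMIs), 1561 CPM in 66 of TSCs (61 UMIs), 2061 CPM in 85 of pTSCs (129 UMIs) and 1957 CPM in 127 of blastoid pTSCs (77 UMIs). Against the kept wells of the same library the ratios were 1.01, 0.93, 1.16 and 1.32. The interval of the last one, 1.04 to 1.66 by counting error, lies above 1, and the others include 1. Apart from leaving out each bulk library in turn, groups of 1 or 3 libraries were not checked for a single outlying library.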

How the results depend on the processing

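No paired analysis was possible because the replicate numbers of the bulk libraries run on from 37 to 42 and the groups share none. Jun stayed lower in CDX2-high and past the threshold in all 13 alternatives (log2 fold change -2.61 to -2.33). Fosl2, whose p-values are descriptions only, passed in 10 of the 11 that gave an adjusted p. DESeq2 gave none for it, and without independent filtering, an alternative chosen after seeing the data, the adjusted p was 0.0739. After thinning to the smallest total Fosl2 did not pass the count filter. Fos passed in 6 of 13 (adjusted p 0.00855 to 0.352). The number of members lower, 3, became 1 with DESeq2, 1 without its independent filtering and 1 after thinning, and ran from 2 to 4 with 1 library left out. Over all genes, 93 were higher and 84 lower. DESeq2 gave 52 and 30, and 31 and 20 without independent filtering, while leaving out 1 library gave 50 to 98 higher and 31 to 91 lower. The cause of these shifts was not tested.

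In single cells no member ratio changed sign under any alternative that could be computed. In differentiated TSCs against TSCs, 1 member was lower, against 2 with the total including mitochondrial genes and 2 with TMM factors (Ier2 passed 2-fold). There the count was 0 with cells weighted equally and 0 without the 5 wells richest in each gene, since Egr1 has no row for these settings. With TMM factors, 2 members instead of 1 were lower in pTSCs than in TSCs, and 0 instead of 1 were higher in blastoid pTSCs than in pTSCs. Shares of cells with a UMI moved by more than their interval in 36 results when cells were thinned to 5000 UMIs and in 2 with another seed (Jund in pTSCs, 48.5%, and Fosl1 in blastoid pTSCs, 3.89%). Variances and correlations on thinned counts moved between draws, and their medians and ranges over 20 draws are given for that reason. Depth limits Egr1, Fosb in pTSCs and blastoid pTSCs, and Jund, Fosb and Zfp36 in bulk.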
